A study of Homo sapiens with 6 samples.

Results

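The genes described are those of HLA class II antigen presentation that these cells transcribe, 8 genes of the 58336 in the tables. They are CIITA, the invariant chain gene CD74, the chain genes HLA-DRA, HLA-DRB1, HLA-DPA1 and HLA-DPB1, and the peptide exchange genes HLA-DMA and HLA-DMB. They were selected on their measured levels in these libraries, by genotype and by clone, so their own differences are a description and carry no test. All 8 were among the 16416 genes that passed the low-count filter, a filter that a gene high in only 1 group can pass through that group.

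Class II molecules are pairs of an alpha and a beta chain that carry peptides from endosomes to the cell surface, where CD4+ T cells read them. The invariant chain holds the peptide groove while the pair travels to the endosome, and HLA-DM then exchanges its last fragment for a peptide. CIITA binds no DNA itself: it is recruited by a complex of RFX, CREB and NF-Y proteins on the X and Y boxes upstream of the class II genes, of CD74 and of the HLA-DM genes, and its level sets theirs in most cells. Professional antigen presenting cells make these genes constitutively, and many other cells do so after interferon gamma.

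RNA was sequenced from KGN, an established human granulosa tumour line of the ovary in which 1 FOXL2 allele holds the C134W variant. In 3 libraries, FOXL2 WT/WT, the variant had been reverted with CRISPR/Cas9 (44a, replicate 1; 4.72, replicate 2; 4.72-44a, replicate 3), and 3 libraries were FOXL2 WT/C134W (3.11, replicate 1; 44b, replicate 2; 3.11-44b, replicate 3). Every sample was collected 30 h after transfection, with no agent named in the labels. The third title of each genotype joins the other two and may stand for a mix, so contrasts used the 4 libraries that name 1 clone, 2 a group, and editing is recorded for WT/WT alone, so it cannot be told apart from genotype. Titles 44a and 44b share a stem, but the labels do not say how the clones are related or whether libraries are separate cultures, so every p measures the spread between these libraries alone.

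Summed expected counts (RSEM's estimated reads per gene) ran from 35332727 to 46613068 per library, and 3 counts were worth 0.0663 to 0.0781 CPM, the count scaled to a common library total by TMM. FOXL2 itself was measured in all 6 libraries, at 7.38, 4.87 and 4.34 CPM in WT/WT replicates 1 to 3 and 9.26, 10.1 and 6.32 CPM in WT/C134W replicates 1 to 3, and a gene total does not show which allele was read. Of the 14 granulosa markers FSHR, AMHR2 and GATA4 were at 0 in every library. Their summed level was 189.6 CPM in 3.11 and 285.5 to 433 CPM in the other 5. Of 22 leukocyte and antigen presenting cell markers, 14 were at 0 in all 6 libraries, among them MS4A1, LYZ, TYROBP, CD3E, SPI1, CD80, CD86 and CD40.

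Upstream sequence is shown because the genes other than CIITA are known targets of the complex that recruits CIITA. RefSeq (GRCh38.p14) gave 7 windows for 6 of the 8 genes, with HLA-DPA1 entered at 2 starts. Each stretch is the 160 bases before the listed start, 5′ to 3′ on the gene's strand. Capitals mark an X1-like core, written AGNNACNGA, and the NF-Y core ATTGG, which reads CCAAT on the other strand. Both strands were searched.
HLA-DRB1, chr6:32589849-32590008, minus strand: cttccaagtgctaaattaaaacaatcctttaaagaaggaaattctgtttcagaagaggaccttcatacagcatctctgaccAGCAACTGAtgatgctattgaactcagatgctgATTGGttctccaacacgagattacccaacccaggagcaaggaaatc
HLA-DMA, chr6:32953098-32953257, minus strand: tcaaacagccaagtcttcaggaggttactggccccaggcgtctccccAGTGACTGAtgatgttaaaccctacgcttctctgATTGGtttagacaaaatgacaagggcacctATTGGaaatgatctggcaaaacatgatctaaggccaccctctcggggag
HLA-DPA1 second start, chr6:33073650-33073809, minus strand: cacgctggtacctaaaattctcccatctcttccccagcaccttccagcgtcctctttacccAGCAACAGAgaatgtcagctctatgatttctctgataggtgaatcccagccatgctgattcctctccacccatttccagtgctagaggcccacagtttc
CD74, chr5:150412911-150413070, minus strand: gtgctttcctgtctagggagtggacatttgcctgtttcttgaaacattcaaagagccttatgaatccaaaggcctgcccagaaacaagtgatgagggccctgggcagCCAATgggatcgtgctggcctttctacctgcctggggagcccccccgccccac
In HLA-DRB1 the X1-like core began 79 bases and the ATTGG 46 bases before the start, 33 bases apart. In HLA-DMA an X1-like core lay 113 bases before the start and an ATTGG 34 bases after it, with another ATTGG further on. HLA-DMB had an X1-like core 88 bases before its start and 1 CCAAT, whose last base also began a reverse X1-like match. HLA-DPB1 held 2 NF-Y cores and no X1-like core in its window, and CD74 held 1 CCAAT. The first HLA-DPA1 window held neither.

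Over 35116 RefSeq windows of the same 300 bases, 15.3% held the X1-like core and 34.6% the ATTGG. Both in that order, with 25 to 40 bases between their first letters, were found in 0.216%. Of the 7 windows above, those of HLA-DRB1 and HLA-DMA did so. The windows of HLA-DQA1, HLA-DQB1, HLA-DRB5 and HLA-DOA held it as well. HLA-DQA1, HLA-DQB1 and HLA-DOA were listed at 0 in every library, and HLA-DRB5 reached 0.348 CPM in 4.72. A match of letters is a description and not a binding site. Only these letters were searched, so a window without a match may still hold a box written otherwise.

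CIITA (ENSG00000179583, chromosome 16, 10866222 to 10943021, plus strand, GRCh38) encodes the transactivator. Its normalised level was 2.32 CPM in 44a, 3.01 CPM in 4.72 and 2.90 CPM in 4.72-44a, all WT/WT. In the WT/C134W libraries it was 6.11 CPM in 3.11, 1.52 CPM in 44b and 2.60 CPM in 3.11-44b. The clone 3.11 stood highest, at about 254 counts, and the other 5 ran from 1.52 CPM in 44b to 3.01 CPM in 4.72. Between single libraries, 3.11 over 44b gave a ratio of 4.01 (95% exact interval 3.06 to 5.31, from counting error only). The WT/WT clones differed less, 4.72 over 44a at 1.29 (0.987 to 1.7), an interval that includes no difference.

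CD74 (ENSG00000019582, chromosome 5, 150401637 to 150412929, minus strand) was the most abundant of the 8 genes in every library, per length. Its normalised level was 2.66 CPM in 44a, 107.3 CPM in 4.72 and 66.9 CPM in 4.72-44a. In WT/C134W it was 39.1 CPM in 3.11, 8.19 CPM in 44b and 15.4 CPM in 3.11-44b. The lowest and the highest library thus shared the WT/WT genotype, and the WT/C134W libraries lay between them. The ratio of 4.72 over 44a was 40.3 (33.6 to 48.8) and that of 3.11 over 44b was 4.77 (4.26 to 5.36). The lowest pair differed beyond counting error too, 44b over 44a at 3.08 (2.5 to 3.82).

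HLA-DRA (ENSG00000204287, chromosome 6, 32439842 to 32445046, plus strand) encodes the DR alpha chain, the partner of every DR beta chain. It stood at 0.858 CPM in 44a, 9.10 CPM in 4.72 and 4.67 CPM in 4.72-44a. In WT/C134W it was 1.59 CPM in 3.11, 0.817 CPM in 44b and 0.911 CPM in 3.11-44b. Only the 2 WT/WT libraries with 4.72 in their title exceeded 2 CPM, and the other 4 lay between 0.817 and 1.59 CPM. The ratio was 10.6 (7.58 to 15.2) for 4.72 over 44a and 1.94 (1.28 to 2.99) for 3.11 over 44b. The clones 44a and 44b were the closest neighbours, with a ratio of 0.953 for 44b over 44a.

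HLA-DRB1 (ENSG00000196126, chromosome 6, 32578769 to 32589848, minus strand) encodes the DR beta chain, and its reads can be shared with other DRB copies. It stood at 0.293 CPM in 44a, 2.96 CPM in 4.72 and 1.28 CPM in 4.72-44a. In WT/C134W it was 1.44 CPM in 3.11, 0.133 CPM (6 counts) in 44b and 0.364 CPM in 3.11-44b. Here 3.11 lay above the joined WT/WT library. The ratios within each genotype were alike in size, 10.1 (5.68 to 19.5) for 4.72 over 44a and 10.9 (4.72 to 30.9) for 3.11 over 44b.

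The DP genes lie head to head, and their annotated spans share 4850 bases on opposite strands. HLA-DPA1 (ENSG00000231389, chromosome 6, 33064569 to 33080775, minus strand), the alpha chain, had 0 counts in 44a, 6.81 CPM in 4.72 and 3.54 CPM in 4.72-44a. In WT/C134W it had 3.34 CPM in 3.11, 0.442 CPM in 44b and 1.69 CPM in 3.11-44b. The exact interval of 4.72 over 44a began at 81.3, with a ratio of 101 if 3 counts are set for 44a. The ratio of 3.11 over 44b was 7.57 (4.72 to 12.8).

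HLA-DPB1 (ENSG00000223865, chromosome 6, 33075926 to 33087201, plus strand), the beta chain, was at 14 counts or fewer in each WT/C134W library. It had 0.113 CPM in 44a, 2.86 CPM in 4.72 and 3.06 CPM in 4.72-44a. In WT/C134W it had 0.337 CPM in 3.11, 0.177 CPM in 44b and 0.0520 CPM in 3.11-44b. The ratio of 4.72 over 44a was 25.3 (10.5 to 79.5), while that of 3.11 over 44b, 1.91 (0.746 to 5.25), included no difference. The joined WT/WT library was the highest of the 6.

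HLA-DMA (ENSG00000204257, chromosome 6, 32948613 to 32969094, minus strand) and HLA-DMB (ENSG00000242574, chromosome 6, 32934629 to 32941070, minus strand) encode the chains of the peptide exchanger HLA-DM. HLA-DMA was measured at 1.24 CPM in 44a, 12.05 CPM in 4.72 and 6.88 CPM in 4.72-44a. In WT/C134W it was at 5.25 CPM in 3.11, 2.30 CPM in 44b and 2.16 CPM in 3.11-44b. HLA-DMA was second to CD74 per length in every library. Its ratio was 9.71 (7.34 to 13.1) for 4.72 over 44a and 2.28 (1.8 to 2.91) for 3.11 over 44b.

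HLA-DMB was the least abundant of the DM chains. It had 0 counts in 44a and 44b, 1.24 CPM in 4.72 and 0.433 CPM in 3.11. The joined libraries held 0.591 CPM (4.72-44a) and 0.911 CPM (3.11-44b). With 3 counts set for a library at 0, the ratio was 18.4 for 4.72 over 44a and 6.54 for 3.11 over 44b. The exact intervals began lower, at 14.4 and 4.79. The joined WT/C134W library exceeded both clones it names.

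**Figure D1:**
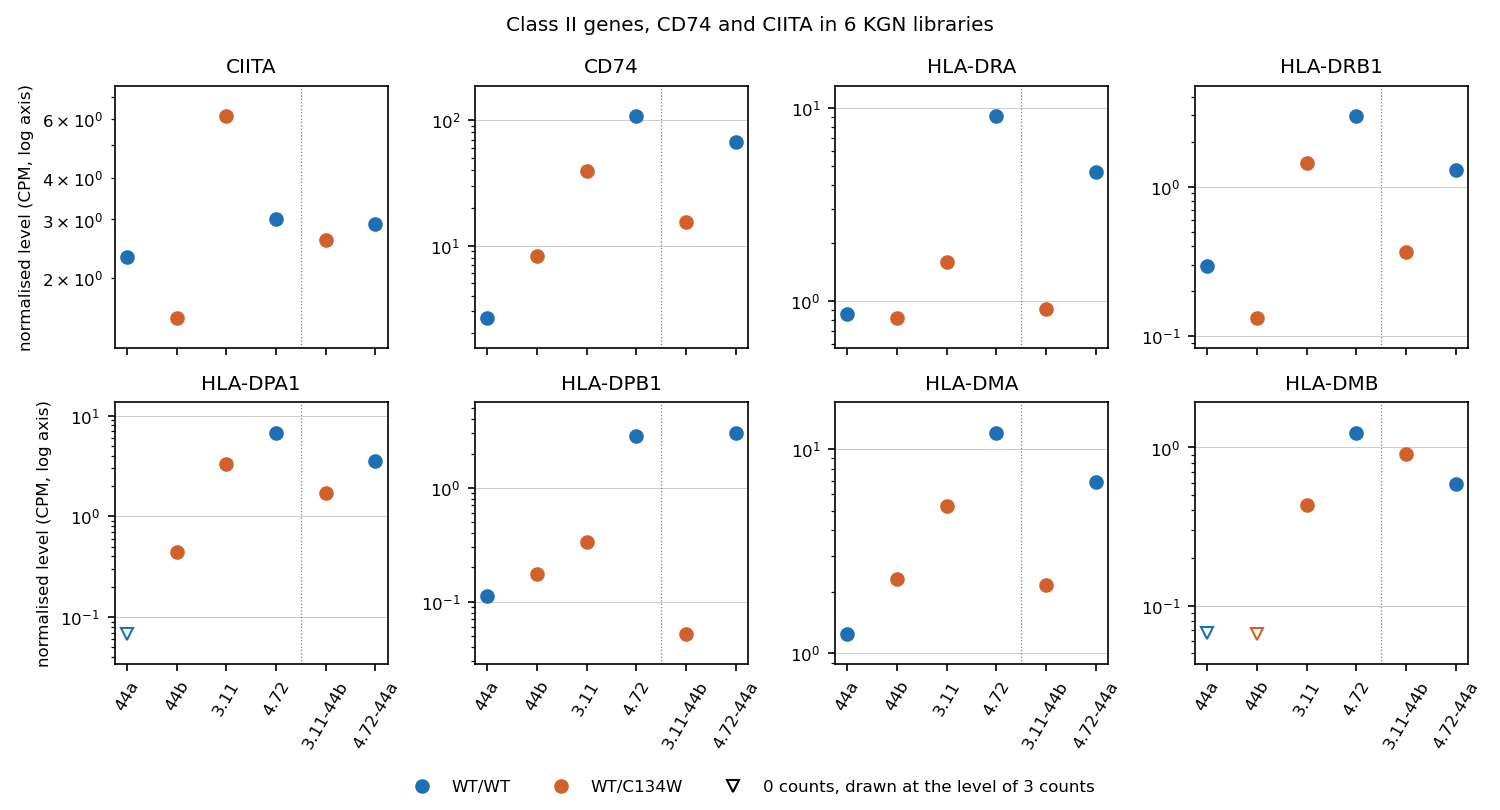
Normalised level (TMM-scaled CPM, log axis) of the 8 genes in each library, with WT/WT in blue and WT/C134W in orange; open triangles are 0 counts drawn at the level of 3 counts. The clones 44a and 44b sit below 3.11 and 4.72 in every panel, as for CD74 at 2.66 and 8.19 against 39.1 and 107.3 CPM.

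Set by clone and in CPM, the pattern of all 8 genes was 4.72 and 3.11 above 44a and 44b without overlap. In TPM the groups overlapped for HLA-DPB1, at 1.02 in 44b and 0.49 in 3.11. Of the genes tested, 15.4% were also higher without overlap in that direction, and the 8 were selected with this contrast known, so nothing is read from their count. CD74 averaged 73.2 ± 48.2 CPM in 4.72 and 3.11 and 5.43 ± 3.91 CPM in 44a and 44b (mean ± SD, n = 2 clones each), 13.5-fold. The mean of CIITA was 2.37-fold higher, 4.56 ± 2.20 against 1.92 ± 0.566 CPM. The other folds were 4.89 for HLA-DMA, 6.38 for HLA-DRA, 10.3 for HLA-DRB1, 11 for HLA-DPB1 and 23 for HLA-DPA1. HLA-DMB, at 0 in both clones of the lower group, was 12.5-fold higher with 3 counts set for each. CIITA, the activator, had the smallest fold of the 8, an order that rested on 4.72. Without 4.72 the log2 difference of CIITA was 1.66, above HLA-DMA at 1.56, HLA-DPB1 at 1.20 and HLA-DRA at 0.92. The median log2 difference of the 8 was 3.39, and stayed 3.39 with HLA-DMB set by 3 counts, against 0.01 over all genes tested.

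The sizes moved with single libraries, while every sign was kept. For HLA-DRA the log2 difference of 2.66 ran from 0.92 without 4.72 to 3.43 without 3.11, and for HLA-DPB1 that of 3.43 ran from 1.20 without 4.72 to 4.27 without 3.11. CD74, at 3.75, ran from 2.84 without 4.72 to 4.77 without 44b, and was 3.16 without 44a. For HLA-DRB1, at 3.35, the range was 2.74 without 4.72 to 4.02 without 44a, and for HLA-DMA, at 2.28, it was 1.56 without 4.72 to 2.79 without 44b. CIITA, at 1.24, was 0.64 without 3.11. HLA-DPA1, at 4.50, was 3.51 without 44a and 10.74 without 44b, where the lower group is 44a at 0 counts and the fitted value is no bound.

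The size of that difference was not the same in the 2 genotypes. The ratio of 4.72 over 44a was above that of 3.11 over 44b for CD74, HLA-DRA, HLA-DPA1, HLA-DPB1 and HLA-DMA, close for HLA-DRB1, and below it for CIITA. For HLA-DMB both ratios are bounds and were not compared. With 1 library on each side of a ratio these differences have no replicate check.

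**Figure D2:**
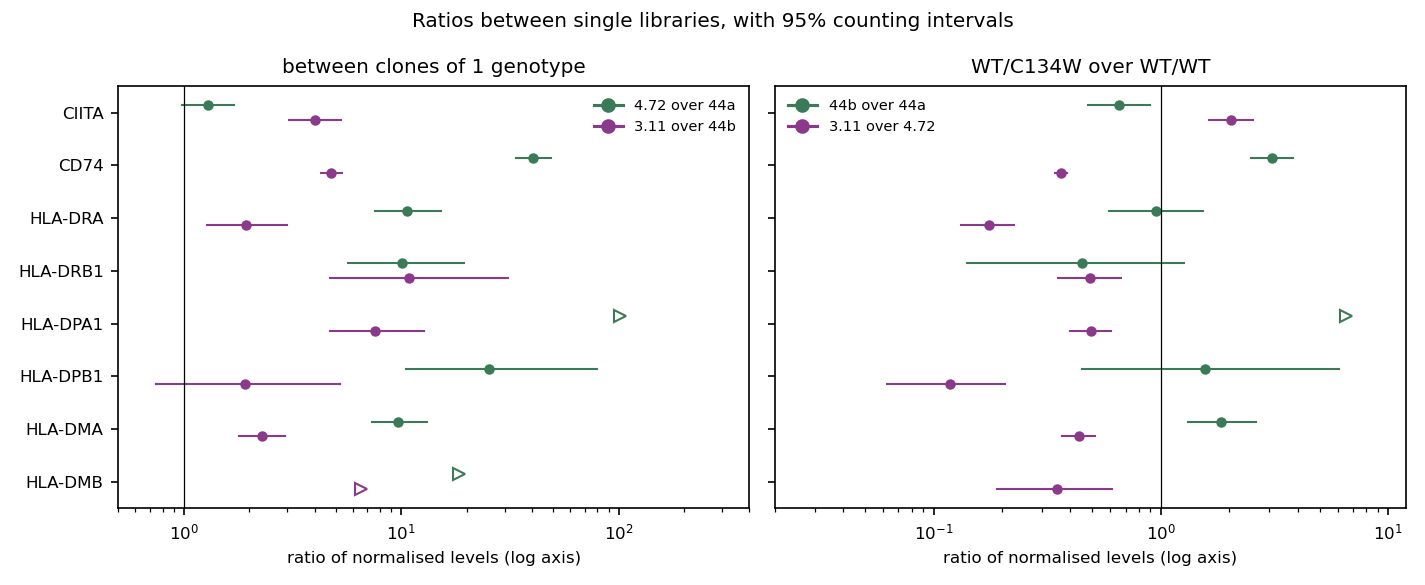
Ratios of normalised levels between 2 libraries (log axis), between clones of 1 genotype (left) and WT/C134W over WT/WT (right). The 95% exact intervals cover counting error only. Open triangles are ratios to 3 counts set for a library at 0 counts, and are not the lower limits of an interval. On the left every point lies above 1 and CD74 reaches 40.3, while on the right CD74 lies at 3.08 in one clone pair and 0.365 in the other.

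Between genotypes, 0 of the 8 genes separated WT/C134W from WT/WT in the single clones. For comparison, of the 16416 genes tested, 3258 (19.8%) were lower in WT/C134W without overlap and another 3220 were higher. CD74 averaged 54.97 ± 73.97 CPM in the WT/WT clones against 23.7 ± 21.9 CPM in the mutant clones (n = 2 each), so the SD exceeded the mean in WT/WT. HLA-DRA averaged 4.98 ± 5.83 CPM in the WT/WT clones and 1.203 ± 0.545 CPM in the mutant clones. The log2 differences, WT/C134W over WT/WT, had a median of -1.12, against 0.01 over all genes, with CIITA at 0.52 and the lowest at -2.51 for HLA-DPB1. That sign rested on 1 library: without 4.72 the log2 difference of CD74 was 3.14, that of HLA-DMA 1.60, that of HLA-DRB1 1.41, that of HLA-DPB1 1.16 and that of HLA-DRA 0.48. HLA-DPA1 and HLA-DMB also turned positive there. For CIITA the sign turned without 3.11, to -0.80.

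Within each clone pair the direction differed by gene. From 44a to 44b, CD74 was higher (3.08, interval 2.5 to 3.82), HLA-DMA was higher (1.85, 1.32 to 2.62), and CIITA was lower (0.656, 0.476 to 0.898). From 4.72 to 3.11 the order was the reverse: CD74 at 0.365 (0.344 to 0.386), HLA-DMA at 0.435, CIITA at 2.03 (1.63 to 2.54). The other genes were lower in 3.11 than in 4.72 as well, from a ratio of 0.118 for HLA-DPB1 to 0.491 for HLA-DPA1. So the library with the highest CIITA, 3.11, was not the one with the highest level of any of the other 7 genes.

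In TPM, a level scaled by transcript length, CD74 was 4.26, 118.43 and 77.80 in WT/WT replicates 1 to 3 and 53.91, 10.34 and 19.74 in WT/C134W replicates 1 to 3. The 8 genes summed to 8.42 TPM in 44a, 162.9 TPM in 4.72 and 106.8 TPM in 4.72-44a. In WT/C134W their sum was 73.72 TPM in 3.11, 17.94 TPM in 44b and 30.68 TPM in 3.11-44b. CD74 made up 50.6% of the sum in 44a and 57.6% in 44b, and 64.3% to 73.1% in the other 4. Even at its highest, in 4.72, the set took 0.013% of all counts.

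The transcript forms behind CIITA and HLA-DRA differed between the clones as well, by the authors' length estimate. RSEM weights each transcript's length by its estimated share, so a change in that mean is a change in the estimated mix. For CIITA the mean length was 16059 bases in 44a, 13823 in 44b, 6070 in 3.11 and 5892 in 4.72, with 10795 in 4.72-44a and 1821 in 3.11-44b. The value in 3.11-44b, from about 100 counts, lay outside those of both clones it names. The value in 44a equals the length of CIITA-201, the longest of 18 annotated transcripts. The last exon of CIITA-201 (chromosome 16, 10923878 to 10936388) is 12511 bases long. That exon shares 7498 bases with DEXI on the opposite strand, which stood at 20.6 to 25.04 CPM in the 6 libraries. Whether DEXI reads entered CIITA was not tested, since the strand setting of the counting is not given in the sources used here. Because of these lengths the order of libraries for CIITA depended on the unit. In TPM, it was 0.20, 0.70 and 0.38 in WT/WT replicates 1 to 3 and 1.61, 0.17 and 2.38 in WT/C134W replicates 1 to 3, so that 3.11-44b stood highest per length and below 3.11, 4.72 and 4.72-44a by CPM.

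HLA-DRA has 2 annotated transcripts, HLA-DRA-201 of 1169 bases and HLA-DRA-202 of 1280 bases. The shorter one starts 36 bases later in exon 1 and 75 bases later in exon 3. From the mean length, HLA-DRA-201 made up 100% of HLA-DRA in 44a and 44b and 0% in 4.72 and 3.11. The joined libraries lay between, 55.7% in 4.72-44a and 72.9% in 3.11-44b. At 37 and 38 counts in 44b and 44a these are estimates from few reads. In TPM, the longer form was 10.9 in 4.72, 2.23 in 3.11 and 0 in 44a and 44b. The shorter form, at 1.17 TPM in 44a and 1.21 TPM in 44b, was 0 in 4.72 and 3.11. In 4.72-44a, from 182 counts, the shorter form was estimated at 3.39 TPM, above both clones that the title joins. In 3.11-44b it was 0.969 TPM, between the clones named there. Why the estimate in 4.72-44a exceeded both clones was not tested, and the split into forms is limited by it.

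For CD74 the mean length did not separate the clone pairs, at 1024 bases in 44a, 1344 in 44b, 1299 in 3.11 and 1373 in 4.72. For HLA-DMA the mean length was 953 bases in 44a and 974 bases in 44b, against 1133 in both 4.72 and 3.11. HLA-DMA overlaps BRD2, an abundant gene at 171 to 205 CPM on the opposite strand, over 435 bases, and its part in the counts was not tested.

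**Figure D3:**
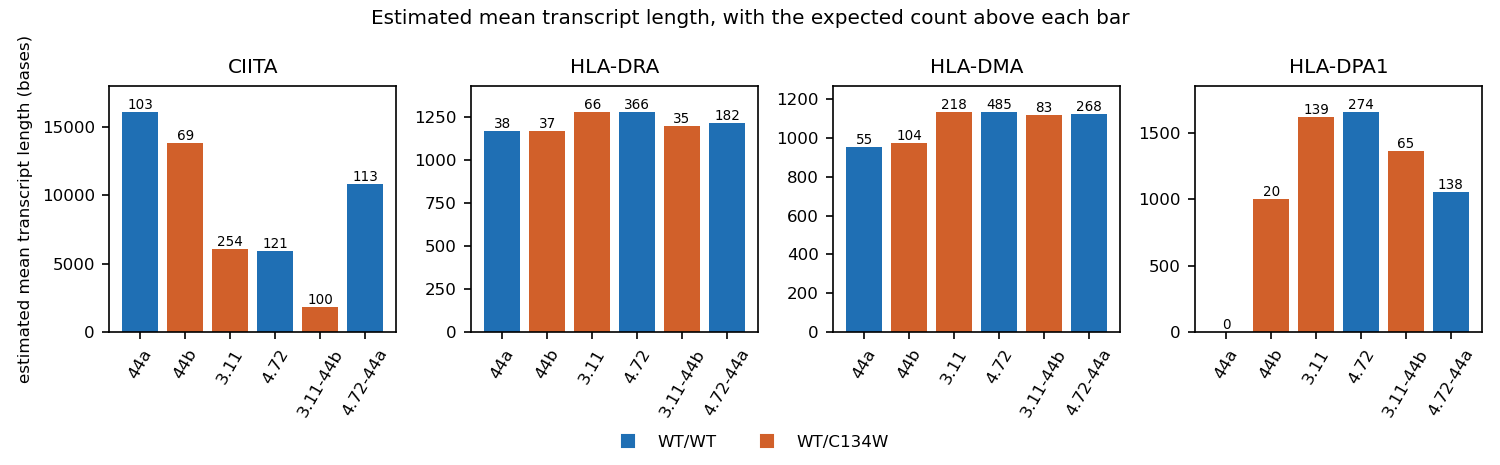
Mean transcript length (bases, linear axis from 0) of CIITA, HLA-DRA, HLA-DMA and HLA-DPA1 in each library, as RSEM estimated it, with the expected count above each bar, WT/WT in blue and WT/C134W in orange. CIITA bars stand at 16059 and 13823 bases in 44a and 44b and at 6070 and 5892 in 3.11 and 4.72; HLA-DPA1 has no bar in 44a, where it had 0 counts.

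The joined libraries were set against the clones they name. In 4.72-44a, 7 of the 8 genes lay between 4.72 and 44a, HLA-DPB1 being the exception. On the linear CPM scale CD74 lay 61.4% of the way from 44a to 4.72. HLA-DMA lay at 52.2%, HLA-DPA1 at 52% and HLA-DRA at 46.3%. Over 202 genes at least 4-fold apart with at least 5 CPM in one clone, the median was 69.5% (quartiles 63.1% and 76.7%). Of these 202 genes, 96% lay between the clones. In 3.11-44b, 5 of the 8 lay between 3.11 and 44b. CD74 lay 23.1% and CIITA 23.5% of the way from 44b to 3.11. The median over 185 such genes was 28.7% (16.7% to 38.8%), and 93% of them lay between the clones. HLA-DPB1, HLA-DMA and HLA-DMB lay outside. HLA-DPB1 had 2 counts in 3.11-44b, while HLA-DMB had 35 there, against 18 in 3.11 and 0 in 44b. None of the genes that lay outside, in either joined library, met the 4-fold and 5 CPM limits. The shares of 96% and 93% are thus from genes further apart or more abundant.

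Genes of the complex that recruits CIITA, and of its cofactors, gave no call. Of the 15 tested, 0 passed in either direction by edgeR's quasi-likelihood test with Benjamini-Hochberg adjustment, in either contrast. Over all genes 0.00609% passed between the clone pairs (1 gene, IGF2BP1, an RNA-binding protein lower in 4.72 and 3.11) and 0% between genotypes. At an unadjusted p under 0.05 the test gave 734 genes (4.47%) and 1243 genes (7.57%). The median log2 difference of the 15 was 0.10 for 4.72 and 3.11 over 44a and 44b, from -0.34 to 0.74. The most abundant were SMARCA4, the ATPase of a chromatin remodeller, at 146 to 155 CPM, CARM1, an arginine methyltransferase, at 80.1 to 110 CPM, and CREBBP, a histone acetyltransferase, at 73.5 to 95.7 CPM. RFX5, which contacts the X box, was named after its values were seen: it had 21.2, 19.9 and 22.3 CPM in WT/WT replicates 1 to 3 and 43.1, 33.0 and 32.9 CPM in WT/C134W replicates 1 to 3. Its log2 difference between genotypes, 0.89, had an adjusted p of 0.593 in edgeR's test. RFXAP, named likewise, was at the upper end of the clone contrast with a log2 difference of 0.74, and reached 3.78 CPM in 3.11.

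The 11 genes listed for the pathway by which interferon gamma turns on CIITA, activators and inhibitors alike, gave no call either. The median log2 difference of this mixed list was 0.00 between the clone pairs and 0.35 between genotypes. JAK1, the receptor kinase, stood at 135 to 155 CPM and EZH2, a histone methyltransferase, at 45.7 to 65.1 CPM. IRF1, which acts on a CIITA promoter and was named after its values were seen, had 27.1 CPM in 3.11 and 12.7 to 16.8 CPM in the other 5 libraries. SOCS1, a feedback inhibitor named likewise, had the highest value of the list between the clone pairs, 1.60, with 0.496 CPM in 44a, 1.02 in 44b, 2.01 in 4.72 and 2.60 in 3.11. Genes that interferons induce showed a median of 0.31 between the clone pairs over the 16 tested of 20, from -0.27 to 7.24, with 10 positive and 0 called. The highest belongs to GBP5, at 0 in 44a and 44b and under 1 CPM elsewhere. GBP4, named after its values were seen, had a log2 difference of 1.90, with 0.564 CPM in 44a, 0.994 in 4.72, 6.21 in 3.11 and 1.37 in 44b. In this list WARS, GBP1 and GBP3 were the most abundant, and GBP1 stood at 73.4, 68.4, 77.3 and 99.6 CPM in 44a, 4.72, 3.11 and 44b. CXCL9, CXCL10, CXCL11 and IDO1 were listed at 0 in all 6 libraries. Between genotypes, WT/C134W over WT/WT, the interferon-induced genes had a median log2 difference of 0.48, with 12 positive, 4 negative and 0 called.

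The class II processing genes gave 0 calls of 15, with a median of 0.08 between the clone pairs and -0.32 between genotypes. The proteases CTSB and CTSD and the endosomal tetraspanin CD63 were the most abundant of them, CTSB at 1175 to 1680 CPM. Among CD74's ligands and partners, 4 of 6 were tested and 0 called. MIF, a cytokine that binds CD74 at the cell surface, stood at 154 CPM in 44a, 306 CPM in 4.72, 236 CPM in 3.11 and 202 CPM in 44b. CD44, its signalling partner, was at 757 to 873 CPM, and CXCR2 and CXCR4 were listed at 0.

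Class I genes, which load peptides by another route, gave no call either. Of 20 class I and peptide loading genes 0 were called, with a median of 0.05 between the clone pairs, from -0.38 to 0.55. B2M, the shared light chain, was at 1425 to 1629 CPM in all 6 libraries. The span from HLA-DRA to HLA-DPB1 (chromosome 6, 32439842 to 33087201) holds 34 genes in GENCODE, 28 of them outside the set. Of the 7 of those that were tested, among them TAP1, TAP2, PSMB8 and PSMB9, 0 were called and the median was 0.05, from -0.24 to 0.55.

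Leukocyte markers summed to 95.5, 107.8, 101.6 and 93.5 CPM in 44a, 4.72, 3.11 and 44b. Most of it was CD68 (63.6 to 74.3 CPM) and CSF1R (15.5 to 26.2 CPM). The 5 tested gave 0 calls, with a median of 0.13 between the clone pairs. PTPRC, the pan-leukocyte gene, was read at 1.40, 1.59, 2.94 and 0.574 CPM in the same order, the highest in 3.11. Granulosa markers had a median of -0.48 over 8 tested, of which INHBA and FST were the most abundant. Epithelial and endothelial markers had a median of 1.43 over 6. The most abundant of these, KRT18, had a log2 difference of -0.31, and those with the highest values, named after they were seen, were KRT19 at 6.27, VWF at 4.45 and TEK at 1.99. KRT19 and VWF were each at 0 CPM in 44a and 0.0442 CPM in 44b, under the level of 3 counts. In 3.11 they were at 2.45 and 0.746 CPM, so the size of their differences is poorly set. None of these lists had a gene past the threshold, and the part of other cells in the class II levels was not tested beyond these values. In bulk RNA, fewer cells that transcribe a gene and less RNA per cell cannot be told apart.

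**Figure D4:**
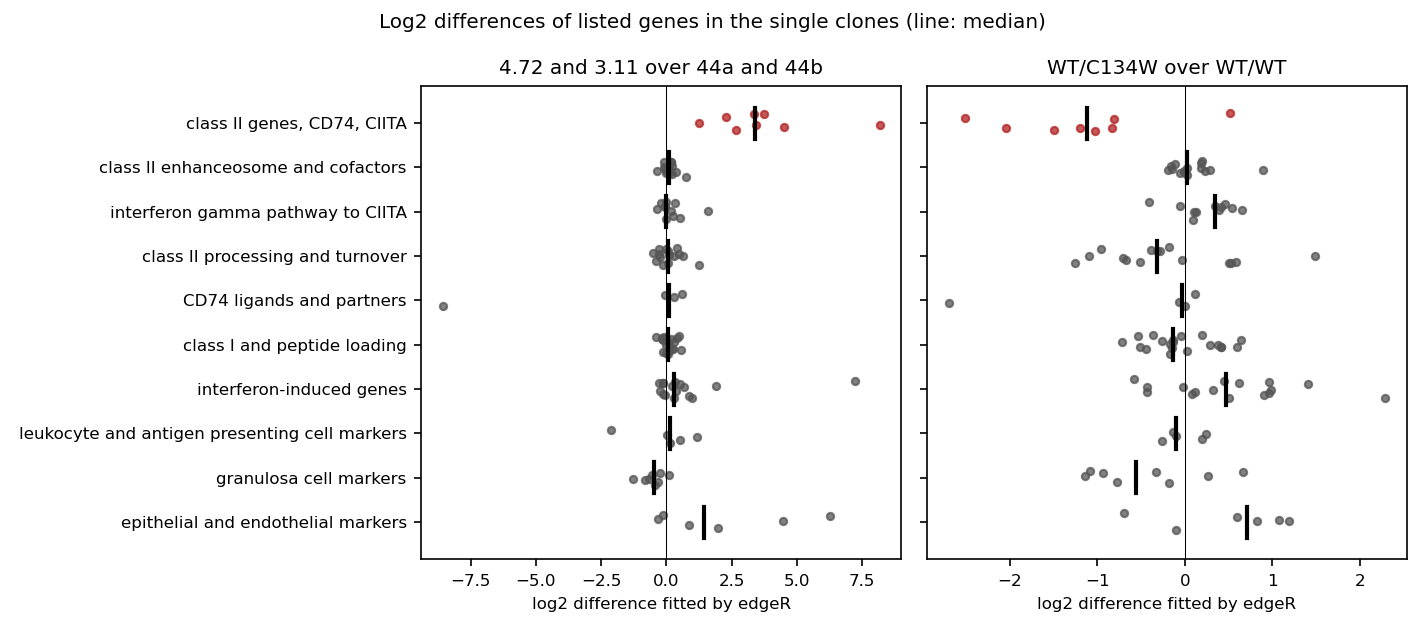
Log2 differences fitted by edgeR in the 4 single clones for the 8 genes (red) and for the tested genes of each list (grey), with a black line at the median, for the clone pairs (left) and for WT/C134W over WT/WT (right). On the left the median of the 8 genes is 3.39 and those of the regulator, interferon gamma and class I lists are 0.10, 0.00 and 0.05. Values of genes at 0 in a whole group, such as HLA-DMB at 8.17, depend on the fit and are not bounds.

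The genes differed in how closely they kept to the set. Over the 6 libraries, the Pearson correlation of log2(CPM + 0.5) of each gene with the mean of the other 7 was 0.975 for HLA-DMA, 0.971 for CD74, 0.951 for HLA-DPA1 and 0.941 for HLA-DRB1. It was 0.906 for HLA-DRA, 0.825 for HLA-DPB1, 0.781 for HLA-DMB and 0.463 for CIITA. The libraries share clones, so these values describe likeness and are not independent observations. Of 785 genes outside the set that reached 2 CPM and spanned at least 2 log2 units over the libraries, 19 had a correlation of at least 0.9 with the mean of the 8. The closest was ITGA7, the integrin alpha 7 chain (0.995), at 63.2, 284 and 212 CPM in WT/WT replicates 1 to 3 and 156, 70.7 and 87.9 CPM in WT/C134W replicates 1 to 3. PCDH10, a protocadherin (0.992), stood at 4.11, 67.7 and 48 CPM and at 22, 6.76 and 8.98 CPM. PABPC4L (0.992), ABI3BP, a matrix protein (0.992), LOXL4, a matrix crosslinking enzyme (0.986), SLIT3, a secreted guidance ligand (0.982), PLAC9 (0.979) and RNF128, a ubiquitin ligase (0.962), completed the 8 closest. None of them lies on chromosome 6.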

How the data were processed

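Of the KGN clones, 6 RNA-seq gene tables were read. Per the file headers, the authors deposited for each gene the expected count, the TPM, the FPKM and the mean transcript lengths that RSEM writes. The expected count was deposited unscaled and estimates how many reads belong to a gene. TPM and FPKM, per the file headers, are scaled for length by the authors, and FPKM gave no value here. Tools named in the submitters' processing notes, with no role, are DESeq2 1.26.0, R 3.6.3, STAR 2.7.6a, RSEM 1.3.1 and Picard 2.8.1. The build named there is that of the mouse, GRCm38, although the gene IDs are human. For the human build, the annotation and the strand setting, the entry is: not given in the sources used here.

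Symbols and coordinates came from GENCODE release 29 (GRCh38), which held 58216 of the IDs. Expected counts were rounded, filtered by filterByExpr and TMM-scaled, and edgeR 4.0.16 (quasi-likelihood test, R 4.3.3) was fitted on the 4 single clones, with Benjamini-Hochberg adjustment over all genes and a threshold of 0.05. CPM values are TMM-scaled over 6 libraries. Intervals of ratios are exact binomial at 95%. The fit was tested on simulated data drawn with a set spread, not with the spread between these clones. That check therefore does not show which differences could be called here. The 8 genes and all lists were chosen with earlier results of these data known. From each list, genes past the threshold were to be named (up to 4) and otherwise the 3 most abundant, some of which are not reported here. Alternatives were DESeq2 1.42.0, limma 3.58.1 (voom, and log2 of TPM plus 1 or 0.1), other scalings and filters, a fit with genotype and clone pair as joint terms (block), all 6 libraries and each library left out.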

Additional observations from a re-analysis of the deposited data

Results flagged for a closer look

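For 5 of the 8 genes the difference between genotypes pointed one way between 44a and 44b and the other way between 4.72 and 3.11. Each clone pair has 1 library a genotype, so the difference between the pairs was not tested. On the log2(CPM + 0.5) scale, CD74 differed by 1.46 from 44a to 44b and by -1.44 from 4.72 to 3.11, 2.90 apart. HLA-DPA1 gave 0.91 and -0.93, which are 1.84 apart. HLA-DPB1 gave 0.14 and -2.00, 2.15 apart, and the first of these rests on 5 and 8 counts. HLA-DMA gave 0.68 and -1.13, 1.81 apart. CIITA was the opposite of the other 4, with -0.48 and 0.91, a difference of -1.40.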

How the results depend on the processing

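Between clone pairs, all 95 alternative log2 differences of the 8 genes kept their sign and 22 moved by over the spread between clones. Between genotypes 88 of 103 kept it and 24 moved. Besides the losses without 4.72 or 3.11 given with the results, CD74 was 0.14 with limma voom, 0.00 with the block and 0.06 on log2(TPM + 0.1). HLA-DPA1 was positive with limma voom (2.26), the block (0.97), log2(TPM + 1) (0.11) and log2(TPM + 0.1) (1.20).

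Genes called between genotypes were 0 with edgeR and 277 with DESeq2 (67 higher, 210 lower), 664 without the low-count filter (238 and 426), 5 with the replicate block, 1 on log2(TPM + 0.1), 511 with all 6 libraries (132 and 379), and 0 to 0 with 1 library left out. Between clone pairs 1 gene was called by edgeR, 209 by DESeq2 (68 and 141), 0 by limma voom, 0 with median-ratio scaling, 33 with library totals, 448 without the filter (187 and 261), 2 at 10 CPM or more, 38 with the replicate block, 0 on either TPM scale, and 0 to 4 with 1 library left out. It was 0 without 44a, 0 without 3.11 and 4 without 44b. List genes called were 0 in both contrasts. Between genotypes they were 3 with DESeq2, 8 without the filter and 4 with all 6 libraries, and between clone pairs 2 with DESeq2 and 3 without the filter. The cause of these shifts was not tested. Without the filter edgeR's prior degrees of freedom were infinite. The fit named replicate block holds genotype and clone pair (44a with 44b, 4.72 with 3.11) as terms together, so each contrast is blocked by the other. It does not use the replicate numbers, which only follow the sample order, and the labels do not state the pairing. HLA-DMB, HLA-DPB1 and HLA-DRB1 rest on 0 to 13 counts in 44a and 44b, which limits their folds. At 10 CPM or more only CD74 of the 8 was kept, and CIITA gave no value on the TPM scales.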
